A study of Rattus norvegicus with 10 samples.

Results

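The BCL2 family of apoptosis regulators was examined as 10 listed genes, taken by gene symbol: the anti-apoptotic members Bcl2, Bcl2l1 and Mcl1, the effectors Bax and Bak1, and the BH3-only members Bcl2l11, Bid, Bbc3, Bmf and Pmaip1. A member was measured where a probe set carried its symbol and no other in the platform annotation. This held for 8 of the 10 members, with 14 probe sets, among 14217 genes and 31042 probe sets in all. Bax shares its probe set with a second annotated symbol, and Pmaip1 had no probe set under its own symbol, so both were not analysed here and Bak1 was the one effector measured. The 8 measured members were read in the nasal transitional epithelium of male F344/N rats, 5 to 6 weeks old when the study began. Rats were dosed by mouth for 5 days with N,N-dimethyl-p-toluidine (DMPT, an aromatic amine used to cure acrylic bone and dental cements) at 120 mg/kg/day in corn oil, or with corn oil alone as vehicle. Each group held 5 animals with 1 array each, and the labels do not say which animals shared a cage.

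The family governs the mitochondrial route of apoptosis. BAX and BAK, once active, open pores in the outer mitochondrial membrane that release cytochrome c. BCL2, BCL-XL (the product of Bcl2l1) and MCL1 hold them in check. The BH3-only proteins sense stress or loss of growth signals and either bind the anti-apoptotic members or activate the effectors directly. Much of the family's activity is set by protein binding, phosphorylation, cleavage and turnover, which arrays do not measure. Transitional epithelium is the thin, mostly non-ciliated lining between the squamous and respiratory epithelium of the anterior nose, and it is a frequent site of response to inhaled and metabolised irritants.

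The epithelium was excised from sections by laser capture, and its RNA was amplified before hybridisation. Epithelial markers were bright: Krt15 stood at percentile 99.9 of all probe sets, Epcam at 99.3 and Cdh1 at 98.8. Leukocyte markers were also present: 5 of 15 lay below the lower quartile (Cd3e, Ms4a1, Itgam, S100a8 and Csf3r), while Ptprc stood at percentile 70.2, Lyz2 at 91.8 and Cd14 at 95.4. So were stromal markers: the 7 measured ran from percentile 44.5 (Lum) to 98.9 (Col1a1). Arrays correlated at r between 0.959 and 0.992. Vehicle replicate 2 stood apart: it correlated with the remaining vehicle arrays at a mean r of 0.975, where each of those had 0.985 to 0.986 within the group. Its RNA ratio was also the highest. This ratio is how far, in log2 units, control probe sets at the 3' ends of the GAPDH and actin transcripts outshone those at the 5' ends. It was 0.87 to 1.30 in DMPT arrays and 1.17 to 1.50 in vehicle arrays. Results are therefore given with and without vehicle replicate 2 where a call turns on it. All levels are log2 expression values, and differences are log2 DMPT minus vehicle, with the standard error of the limma fit after ±. A difference passed the test where limma's p, after Benjamini-Hochberg adjustment across the 31042 probe sets, was under 0.05. In captured tissue, fewer cells of a type and less RNA per cell cannot be told apart.

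Both genes that passed the test were BH3-only genes, and their promoter windows are shown as the DNA next to the start of these transcripts. They come from the RefSeq promoter table of build GRCr8 (250 bases before to 50 after the start, read along the gene's strand). Capitals mark matches, on either strand, to GTAAACA, the core letters bound by FOXO transcription factors, or to GGGCGG, the GC box bound by SP factors. The windows are chr3:135819792-135820091, plus strand, for Bcl2l11 and chr4:155808270-155808569, minus strand, for Bid.
Bcl2l11: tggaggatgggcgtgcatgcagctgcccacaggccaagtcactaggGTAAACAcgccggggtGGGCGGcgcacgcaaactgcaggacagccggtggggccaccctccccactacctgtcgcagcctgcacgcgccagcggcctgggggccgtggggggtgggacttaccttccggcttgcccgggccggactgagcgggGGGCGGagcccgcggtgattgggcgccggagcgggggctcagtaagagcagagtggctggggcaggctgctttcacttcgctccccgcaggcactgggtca
Bid: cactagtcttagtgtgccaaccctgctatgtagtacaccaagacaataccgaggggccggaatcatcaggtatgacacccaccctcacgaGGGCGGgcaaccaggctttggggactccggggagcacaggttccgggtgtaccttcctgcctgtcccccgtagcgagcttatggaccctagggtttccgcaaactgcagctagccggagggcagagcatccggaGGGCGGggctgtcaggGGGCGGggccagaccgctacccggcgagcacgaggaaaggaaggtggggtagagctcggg

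The Bcl2l11 window held 1 match to GTAAACA, in capitals near its 5′ end, and 2 to GGGCGG. The Bid window held 3 matches to GGGCGG and 0 to GTAAACA. Over all 33469 promoter windows of the same length in that table, 3.78% held GTAAACA and 33.1% held GGGCGG. The Bcl2l11 window was also among the 12.1% of windows that held TGACNNNGC, the core of the antioxidant response element read by NRF2; its match lay on the opposite strand and overlapped no capital letter. The Bid window did not hold this core, but a window of the anti-apoptotic member Bcl2l1 did. Neither window held an AP-1 site (TGANTCA, in 7.33% of all windows), a cyclic AMP response element (TGACGTCA, 1.83%), an E-box (CACGTG, 6.42%) or an E2F site (TTTNNCGC, 4.92%). The G and C content was 71.0% in the Bcl2l11 window and 63.3% in the Bid window, beside a median of 51.7% over all windows. The 8 members with a window in the table were not the 8 measured: Pmaip1 had a window, and Bbc3 had none and was not searched. Of the 8 with a window, Bcl2l11 was the only one with GTAAACA, and Bcl2 was the only one with no GGGCGG in any window. A match to these letters is not a site shown to be bound, and binding was not measured.

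Bcl2l11 and Bid rose after DMPT, and the other 6 measured members did not pass the test. Bcl2l11, which encodes BIM, was 2.63-fold higher, and Bid was 1.88-fold higher (95% confidence intervals 2.22 to 3.13 and 1.59 to 2.23). Bcl2l11 was among the 1.91% of genes that passed and were at least 2-fold higher. Over the 8 measured members, 2 were higher and 0 lower, where 7.13% of all genes were higher and 6.77% lower. Of the 14 member probe sets, 4 were higher and 0 lower, where 5.37% of all probe sets were higher and 5.74% lower. These counts describe a short list. Within it, 2 of 5 pro-apoptotic members passed, both higher, and 0 of 3 anti-apoptotic members passed in either direction. Not passing does not show that a member was unchanged.

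**Figure D1:**
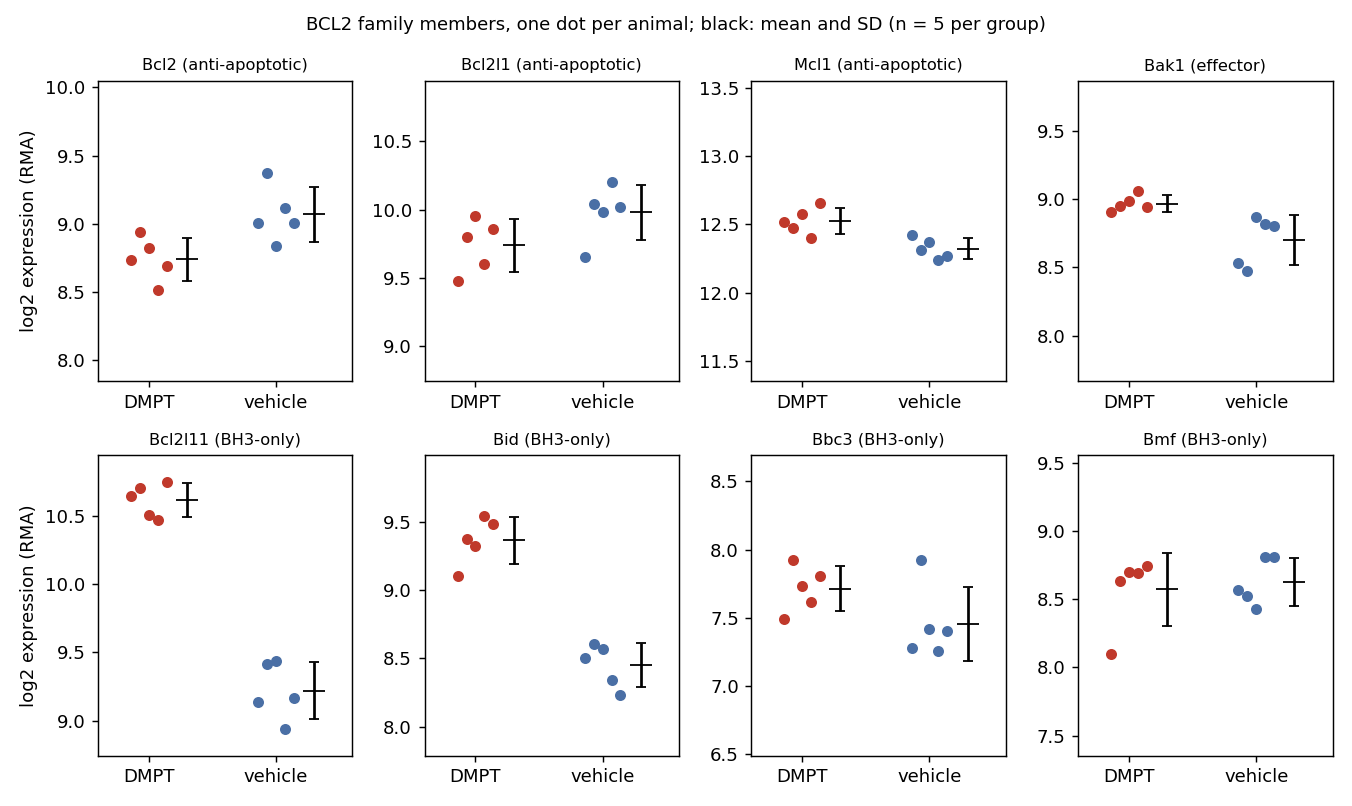
Log2 expression of the 8 measured members, 1 dot per animal, with DMPT animals in red and vehicle animals in blue; the black bar is the mean with its SD (n = 5 each), and each panel spans the same height in log2 units. Bcl2l11 and Bid show a wide gap between groups and Bak1 a narrow one, and the groups overlap in the other 5 panels.

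BIM, the product of Bcl2l11, is among the most potent BH3-only proteins: it binds all the main anti-apoptotic members and can activate BAX and BAK. Its brightest probe set, 1388742_at, read 10.65, 10.70, 10.50, 10.47 and 10.75 in DMPT animals 1 to 5, against 9.14, 9.42, 9.44, 8.94 and 9.17 in vehicle animals 1 to 5. The lowest DMPT value lay more than 1 log2 unit above the highest vehicle value, so every DMPT animal was above every vehicle animal. The means were 10.62 ± 0.12 and 9.22 ± 0.21 (SD, n = 5 each). The difference was 1.40 ± 0.11 log2 units (limma adjusted p = 3.60e-05). By p this placed Bcl2l11 at rank 28 of 14217 genes, and by size of rise at rank 111.

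The 2 other probe sets of Bcl2l11 moved the same way and also passed. Probe set 1387338_s_at read 8.24, 7.95, 8.02, 8.04 and 7.93 in DMPT animals, against 6.69, 6.49, 7.29, 6.49 and 6.65 in vehicle animals, a difference of 1.31 ± 0.15 (limma adjusted p = 2.69e-04). Probe set 1370787_at read 8.34, 7.83, 7.77, 7.77 and 8.17 in DMPT animals, against 7.40, 6.50, 7.17, 6.92 and 7.18 in vehicle animals, a difference of 0.94 ± 0.17 (limma adjusted p = 0.00546). The groups overlapped for none of the 3 probe sets, although they did not rank the animals alike: DMPT replicate 1 was highest by the last 2 and DMPT replicate 5 by the brightest. The array's suffix _s_at marks a probe set whose probes can match more than 1 transcript. Without vehicle replicate 2 the brightest probe set differed by 1.45 (limma adjusted p = 5.52e-05).

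BID links the death receptor route to mitochondria: caspase-8 cuts it, and the truncated protein activates BAX and BAK. Bid probe set 1377759_at read 9.10, 9.37, 9.32, 9.55 and 9.49 in DMPT animals, against 8.50, 8.61, 8.57, 8.35 and 8.23 in vehicle animals. Every DMPT animal was above every vehicle animal, with DMPT replicate 1 the lowest of its group. The difference was 0.91 ± 0.11 (limma adjusted p = 4.33e-04), and it ranked 161 of 14217 genes by p. A second Bid probe set, 1369683_at, did not pass. It read 7.38, 6.32, 6.50, 6.18 and 6.45 in DMPT animals, against 5.91, 6.01, 6.18, 5.95 and 6.82 in vehicle animals, and the groups overlapped. Its difference was 0.39 (95% confidence interval -0.12 to 0.90, limma adjusted p = 0.341), and its vehicle mean of 6.17 was lower than each array's own lower quartile, which ran between 6.38 and 6.51. Averaged over both probe sets, Bid differed by 0.65 and still passed. Without vehicle replicate 2, Bid by its brighter probe set differed by 0.95 (limma adjusted p = 4.89e-04).

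PUMA, the product of Bbc3, is a BH3-only protein that binds all the main anti-apoptotic members, and its call depended on 1 array. Bbc3 read 7.49, 7.92, 7.73, 7.62 and 7.80 in DMPT animals, against 7.28, 7.92, 7.42, 7.26 and 7.40 in vehicle animals. All 5 DMPT animals were above 4 of the vehicle animals, and vehicle replicate 2 was as high as the highest DMPT animal. The difference was 0.26 ± 0.14 with all arrays (limma adjusted p = 0.277) and 0.37 without vehicle replicate 2 (limma adjusted p = 0.0313).

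BMF, a BH3-only protein kept on the cytoskeleton in healthy cells, showed no such gap. Bmf read 8.10, 8.63, 8.70, 8.69 and 8.74 in DMPT animals, against 8.57, 8.52, 8.42, 8.81 and 8.81 in vehicle animals. DMPT replicate 1 was the lowest of all 10 animals and the other 4 DMPT animals lay within the vehicle range. The difference was -0.05 (95% confidence interval -0.35 to 0.25, limma adjusted p = 0.867), and 0.066 without DMPT replicate 1.

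Bak1, which encodes the pore-forming effector BAK, did not pass although its groups did not overlap. It read 8.90, 8.95, 8.99, 9.06 and 8.94 in DMPT animals, against 8.53, 8.47, 8.87, 8.81 and 8.80 in vehicle animals. The lowest DMPT value and the highest vehicle value were 8.90 and 8.87. The difference was 0.27 ± 0.099 (95% confidence interval 0.052 to 0.49, limma adjusted p = 0.111). In all, 5 of the 14 member probe sets had DMPT values entirely above the vehicle values, those of Bcl2l11, the brighter one of Bid and that of Bak1, where 5.82% of all probe sets did so. None of the 14 had DMPT values entirely below the vehicle values, where 5.21% of all probe sets did.

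Of the anti-apoptotic members, Bcl2 and Bcl2l1 had differences below 0 and Mcl1 above 0, and none passed. Bcl2, the founding survival protein of the family, read 8.73, 8.94, 8.82, 8.52 and 8.69 in DMPT animals, against 9.01, 9.38, 8.84, 9.12 and 9.00 in vehicle animals. The groups overlapped only through DMPT replicate 2 and vehicle replicate 3. The difference was -0.33 ± 0.12 (95% confidence interval -0.58 to -0.072, limma adjusted p = 0.100).

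Bcl2l1, which encodes BCL-XL, a survival protein of many epithelia, was read by 3 probe sets. The brightest, 1370812_at, read 9.48, 9.80, 9.95, 9.60 and 9.86 in DMPT animals, against 9.65, 10.04, 9.98, 10.20 and 10.02 in vehicle animals. The groups overlapped through vehicle replicate 1, the lowest of its group. The difference was -0.24 ± 0.12 (95% confidence interval -0.52 to 0.030, limma adjusted p = 0.260). The other 2 probe sets differed by -0.17 (1369180_at) and -0.079 (1370485_a_at), and neither passed. The last ran from 8.45 in vehicle replicate 2 to 9.76 in vehicle replicate 4, and its DMPT values lay within that range.

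MCL1 is a short-lived survival protein whose level follows its synthesis closely. Mcl1 probe set 1372520_at read 12.52, 12.47, 12.57, 12.40 and 12.66 in DMPT animals, against 12.42, 12.31, 12.37, 12.24 and 12.27 in vehicle animals. In 4 of 5 DMPT animals it was above every vehicle animal. The difference was small, at 0.20 ± 0.083 (95% confidence interval 0.021 to 0.38, limma adjusted p = 0.152). The animals were alike: the residual spread of Mcl1 among them was at percentile 5.01 of all genes. The limma fit draws such a spread toward that of all probe sets, so the standard error does not rest on the Mcl1 values alone. A second probe set of Mcl1 differed by 0.32 ± 0.13 (limma adjusted p = 0.138).

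**Figure D2:**
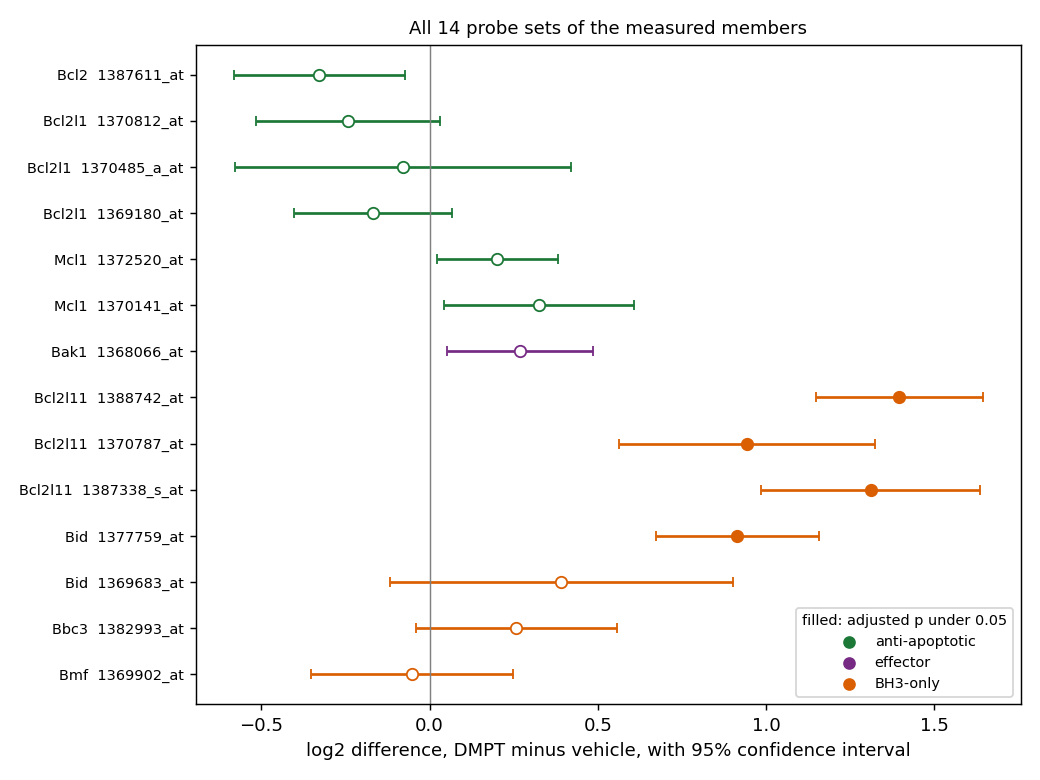
Log2 difference, DMPT minus vehicle, of all 14 member probe sets with 95% confidence intervals from the limma fit, coloured by role; filled points passed the test. The 3 probe sets of Bcl2l11 and the brighter one of Bid lie between 0.91 and 1.40, and the other 10 lie between -0.33 and 0.39.

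Set against each other by role, the classes differed in their medians but overlapped member by member: anti-apoptotic Mcl1, at 0.20, and 0.32 by its second probe set, lay above pro-apoptotic Bmf, at -0.05. The median difference was 0.27 over the 5 measured pro-apoptotic members and -0.24 over the 3 anti-apoptotic members, beside -0.0052 over all genes. For each animal, the mean distance from the vehicle mean was taken over each class. The pro-apoptotic mean minus the anti-apoptotic mean was 0.57 to 0.87 in DMPT animals and -0.12 to 0.12 in vehicle animals. This gap rests largely on Bcl2l11 and Bid, since the remaining pro-apoptotic members, Bak1, Bbc3 and Bmf, differed by 0.27, 0.26 and -0.05 and none of them passed. No p is given for these class values because the members were chosen with results of these data known. The anti-apoptotic median was -0.079 where the probe set with the largest interquartile range stood for each gene. The pro-apoptotic median became 0.41 when the RNA ratio entered the fit and 0.37 without vehicle replicate 2.

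**Figure D3:**
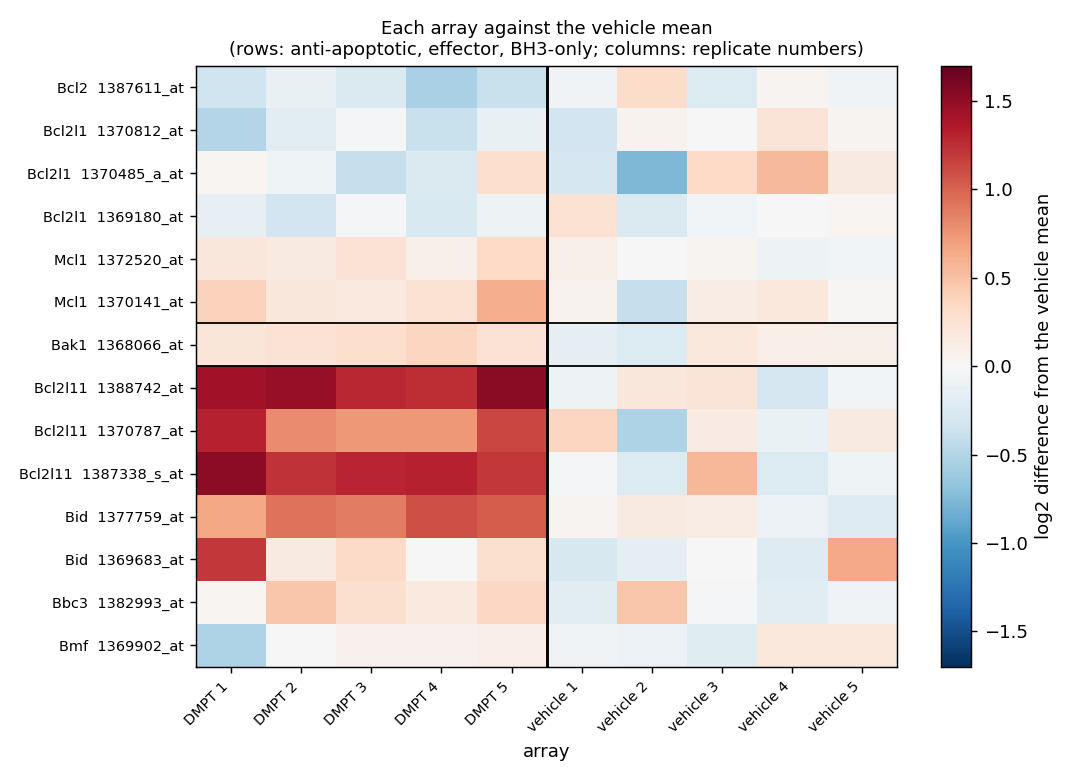
Log2 distance of each array from the vehicle mean for the 14 member probe sets; rows run from anti-apoptotic through effector to BH3-only, DMPT arrays stand left of the black line and vehicle arrays right of it, and red is above and blue below the vehicle mean. The 3 Bcl2l11 rows and the row of the brighter Bid probe set lie 0.65 or more above the vehicle mean in all 5 DMPT arrays. Both Mcl1 rows, Bak1, Bbc3 and the dimmer Bid row are also above it in all 5, the last by only 0.0019 in DMPT replicate 4. The rows of Bcl2 and of Bcl2l1 probe sets 1370812_at and 1369180_at are below it in all 5. Vehicle replicate 2 is the bluest array for Bcl2l1 probe set 1370485_a_at.

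Of 13 measured genes of the wider BCL2 family, 1 was higher (7.69%) and 1 lower (7.69%), near the 7.13% and 6.77% of all genes. Bcl2a1, an anti-apoptotic member known mainly from blood cells, read 8.97, 9.30, 9.46, 9.37 and 9.10 in DMPT animals, against 9.07, 8.55, 8.80, 8.72 and 8.67 in vehicle animals. It rose by 0.48 ± 0.12 (limma adjusted p = 0.0297), and lost its call without any one of 5 arrays (DMPT replicates 2, 3 or 4, vehicle replicates 4 or 5), with differences from 0.42 to 0.56 over the omissions. Bcl2l15, a family member known mainly from gastrointestinal tissue, fell by 0.63 ± 0.18 (limma adjusted p = 0.0415). Among the 10 omissions of an array it kept its call only without DMPT replicate 2 or vehicle replicate 1, with differences from -0.76 to -0.49. Of the 9 other alternatives, it did not pass in 1, the fit with the RNA ratio as a covariate (limma adjusted p = 0.195). The other 11, among them the BH3-only genes Bad, Bik and Hrk and the mitophagy receptors Bnip3 and Bnip3l, did not pass. Bik's DMPT values lay entirely below its vehicle values, as for 5.21% of all probe sets (difference -0.22, limma adjusted p = 0.114). The groups of Bad and Hrk overlapped.

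Of 16 measured genes downstream at the mitochondrion and among the caspases and their inhibitors, 2 were higher (12.5%, beside 7.13% of all genes) and 0 lower (beside 6.77%), with a median difference of 0.16. Birc5 encodes survivin, an inhibitor of apoptosis protein that also serves cell division as a part of the chromosomal passenger complex. It read 8.89, 9.00, 9.04, 9.05 and 8.81 in DMPT animals, against 7.95, 8.29, 7.87, 7.58 and 7.54 in vehicle animals, a rise of 1.11 ± 0.14 (limma adjusted p = 4.88e-04) with no overlap. Vdac2, a channel of the outer mitochondrial membrane that anchors BAK, rose by 0.30 ± 0.078 (limma adjusted p = 0.0321), a call lost without any one of 6 arrays (DMPT replicates 2 to 5, vehicle replicates 3 or 5; differences from 0.26 to 0.32). The apoptosome genes Apaf1 and Casp9, the effector caspase gene Casp6 and the caspase inhibitor gene Xiap did not pass. Casp6's DMPT values lay entirely above its vehicle values, as for 5.82% of all probe sets (difference 0.30, limma adjusted p = 0.0936).

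Of 25 measured genes that act upstream of the family, 2 were higher (8%) and 1 lower (4%), beside 7.13% and 6.77% of all genes. E2f1, a transcription factor of the cell cycle that can induce several BH3-only genes, rose by 0.82 ± 0.17 (limma adjusted p = 0.00907). Bag3, a co-chaperone that binds BCL2, rose by 0.43 ± 0.091 (limma adjusted p = 0.0113). Pim3, a survival kinase that phosphorylates BAD, fell by 0.67 ± 0.13 (limma adjusted p = 0.00728). Mdm2, which encodes a ubiquitin ligase, differed by -0.24 ± 0.10 and Cdkn1a, which encodes a cell cycle inhibitor, by 0.22 ± 0.11, and neither passed (limma adjusted p = 0.164 and 0.245). Foxo1 and Foxo3 encode FOXO factors that are known to activate Bcl2l11 when growth factor signalling is low, mainly through their location in the cell rather than their mRNA. Their mRNA differed by -0.14 (Foxo1) and -0.40 (Foxo3), and neither passed (limma adjusted p = 0.534 and 0.0805). The Foxo3 groups did not overlap: the highest DMPT value was 11.84 and the lowest vehicle value 11.85. Foxo1 and Foxo3 were named after their values were seen.

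**Figure D4:**
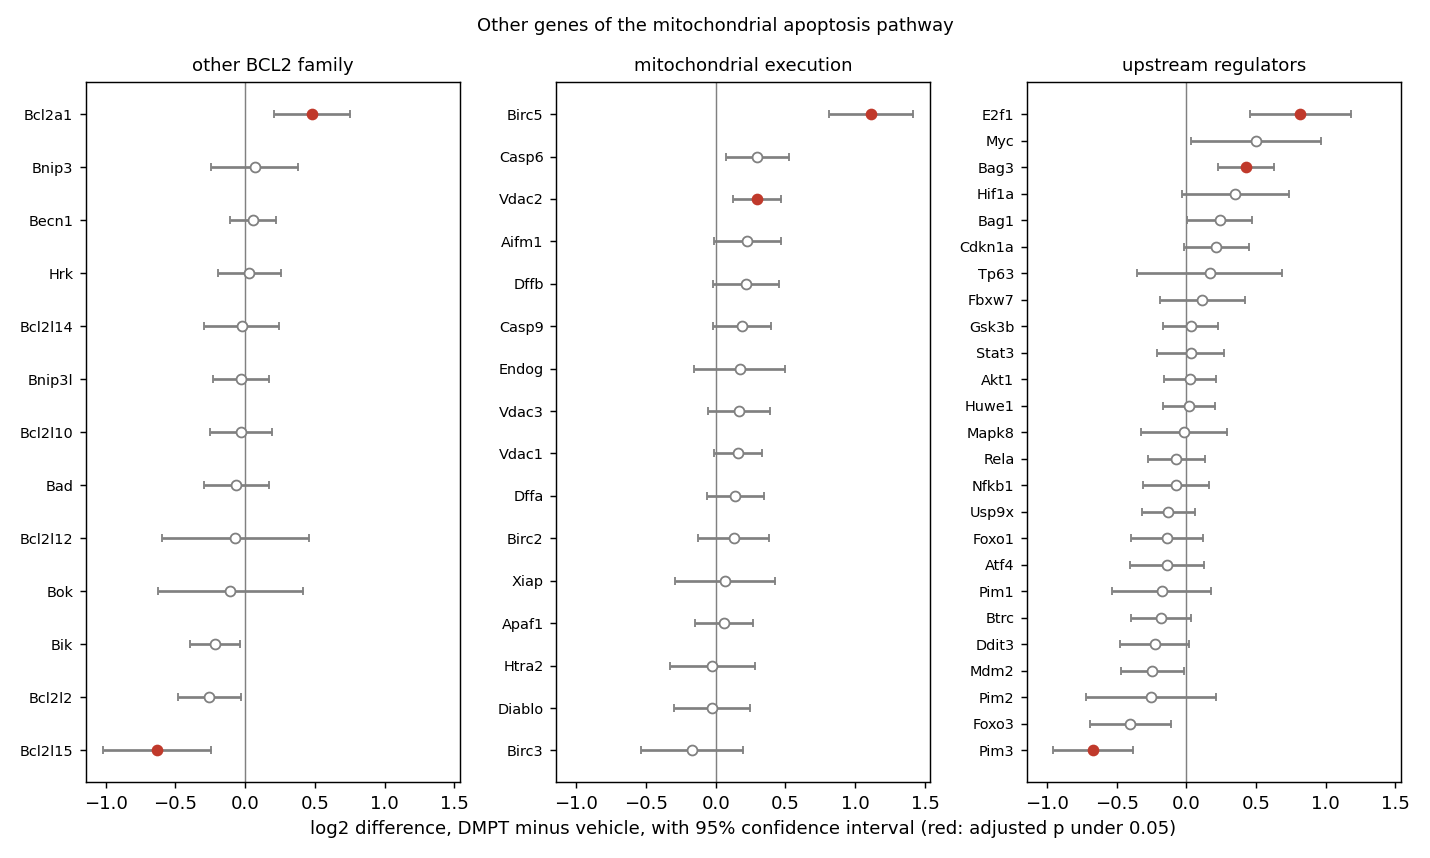
Log2 difference, DMPT minus vehicle, with 95% confidence intervals, for the other measured genes of the pathway in 3 lists: 13 of the wider BCL2 family, 16 of mitochondrial execution and 25 upstream regulators; red points passed the test. Birc5 at 1.11 and E2f1 at 0.82 lie farthest to the right and Pim3 at -0.67 farthest to the left.

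Markers of several cell types moved with treatment beside these genes. Of 15 measured leukocyte markers, Cd68, Cd14 and C1qa were higher and Lyz2 was lower. The other 11 did not pass, among them Aif1, Itgam and Ptprc, the last carried by all leukocytes. The summed leukocyte level was 13.4 to 13.7 log2 units in DMPT arrays and 13.3 to 13.5 in vehicle arrays. Of 5 endothelial markers, Pecam1, Esam and Kdr were higher, and their summed level was 9.70 to 10.9 in DMPT arrays and 8.58 to 9.57 in vehicle arrays. All 5 markers of ciliated cells were lower, at 11.5 to 13.0 in DMPT arrays and 13.0 to 14.3 in vehicle arrays. Of 10 epithelial markers, Krt5, Krt7 and Krt8 were higher and 0 were lower, at 16.6 to 16.7 in DMPT arrays and 16.4 to 16.5 in vehicle arrays. Of 7 stromal markers 0 passed, and their summed level was 13.6 to 14.7 in DMPT arrays and 13.9 to 14.6 in vehicle arrays. Of 6 muscle and cartilage markers 0 passed, and 4 of them lay below the lower quartile. Of 5 olfactory markers Adcy3 was higher and Gap43 lower. Some markers were dim: Ms4a1 stood at percentile 1.31 of all probe sets, Myh2 at 4.42 and Cnga2 at 7.43. A value above 0 on this scale does not by itself show that a marker was expressed. The part of these cell types in the rises of Bcl2l11, Bid and Bcl2a1 was not tested.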

How the data were processed

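The authors deposited log2 expression values per probe set for 10 arrays, and the submitters' processing notes name RMA, the robust multi-array average. The RMA software was not given in the sources used. The array's probe names are those of an Affymetrix rat array. Of 31099 probe sets, 57 controls were set aside. Symbols came from the platform annotation (20826 probe sets with 1 symbol, 436 with several, 9780 with none), and the identifiers of the 8 measured members matched the RefSeq gene table of GRCr8. The brightest probe set on average represented a gene, giving 14217 genes.

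Treatment was tested in R 4.3.3 by limma 3.58.1, with a treatment term in lmFit and eBayes moderation, two-sided, adjusted over all 31042 probe sets, on the log2 values without a filter. The authors used the ORIOGEN software per the series' design text; it was not run. The code was tested on simulated data. The number of arrays, not a depth, limits the precision. P-values set each difference against the spread between these animals, drawn by eBayes toward the spread of all probe sets. They take the arrays as independent. Cage mates, which the labels do not identify, were therefore also taken as independent. The labels number the replicates of each group.

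The members and lists were chosen with earlier results of these data known. All members were named, and from each of 3 pathway lists the genes that passed, up to 6, with Mdm2 and Cdkn1a; 1 further gene of the rule is not reported here. Foxo1, Foxo3, Bik, Casp6 and the other list members given without values were named after their values were seen. So were the markers that passed and the stromal markers Col1a1 and Lum. Alternatives covered a filter on dim probe sets, centring, an intensity trend, robust fitting, array weights, the RNA ratio, a replicate block, the choice of probe set and the omission of each array. Replicate numbers were not taken as pairs in the main fit.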

Additional observations from a re-analysis of the deposited data

Results flagged for a closer look

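Among 50 groups of 5 arrays (25 probe sets in each treatment group), 5 held an array far from the rest, by a test of the gap at either end against the whole range; chance flags about 1 in 20 groups. Vehicle replicate 2 read 7.92 for Bbc3, with the other vehicle arrays between 7.26 and 7.42. The same array read 9.26 for Mcl1 probe set 1370141_at, with the others between 9.67 and 9.83. DMPT replicate 1 read 8.10 for Bmf, with the other DMPT arrays between 8.63 and 8.74, and 7.38 for Bid probe set 1369683_at, with the others between 6.18 and 6.50. Vehicle replicate 3 read 7.29 for Bcl2l11 probe set 1387338_s_at, with the other vehicle arrays between 6.49 and 6.69; all 5 DMPT arrays were above it.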

How the results depend on the processing

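Bcl2l11 and Bid kept their direction and their call in all 19 alternatives run, with differences from 1.22 to 1.45 and from 0.65 to 0.98. The count of members lower stayed at 0 throughout. The count of members higher was 2 or 3, the third being Bbc3 with array weights (0.35, limma adjusted p = 0.0405) or without vehicle replicate 2 (limma adjusted p = 0.0313), and Bbc3's adjusted p ran up to 0.462 over the omissions. The pro-apoptotic median became 0.41 when the RNA ratio entered the fit and 0.23 to 0.37 over the omissions. The anti-apoptotic median was -0.079 with the probe set of largest interquartile range and -0.32 to -0.18 over the omissions. Bmf changed sign with array weights (0.0078), and ran from -0.10 to 0.066 over the omissions. Bcl2l1 probe set 1370485_a_at ran from -0.27 to 0.057 over the omissions and was -0.42 when the RNA ratio entered the fit. The cause of these moves was not tested. The dim filter left out Bid probe set 1369683_at, so no value is given for it there.

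Same-numbered arrays of the groups had correlated deviations between -0.067 and 0.23. Differently numbered arrays were not compared, so this range cannot decide whether the numbers mark pairs. The main fit took the arrays as unpaired. With the replicate block Bcl2l11 differed by 1.40 (limma adjusted p = 5.52e-04), Bid by 0.91 and 2 members were higher; Bcl2a1 and Vdac2 lost their calls (limma adjusted p = 0.0664 and 0.0949). Vdac2 also lost it with the RNA ratio as a covariate (limma adjusted p = 0.102). Over all genes the lower count of 962 became 456 when the RNA ratio entered the fit, and 542, 608 and 622 without DMPT replicates 3, 4 and 5. Dim probe sets, such as the second one of Bid, limit what can be seen.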
